A study of Mus musculus with 30 samples.

Results

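The mitosis and spindle genes described here are 51 genes whose products drive or carry out cell division. They were chosen by symbol from a list of mitotic kinases and cyclins, chromosome proteins, kinetochore and checkpoint proteins, kinesins, spindle proteins and cytokinesis proteins. The rule itself uses no measured value, but the members were listed with earlier results of these data known. All 51 had a row in both deposited count tables, among 13353 genes in bone marrow (BM) and 17059 genes in adipose tissue macrophages (ATMs), and all 51 were tested in both tissues.

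Entry into mitosis depends on cyclins A and B, which activate the kinase *Cdk1*, and on the transcription factor *Foxm1*, which drives many genes of the G2 and M phases. Kinetochores then attach chromosomes to spindle microtubules, and the spindle checkpoint holds back the anaphase-promoting complex until attachment is complete. The complex marks cyclin B and securin for destruction, separase is released, and the sister chromatids part. Transcripts of these genes are low in resting cells and high in dividing ones, and in marrow most of the dividing cells are granulocytic, erythroid and lymphoid precursors, whereas macrophages resident in fat divide at a low rate.

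RNA was sequenced from whole BM and from F4/80+ cells sorted from adipose tissue, with 5 groups of 3 libraries in each tissue. Recipients were lethally irradiated (700 and 400 cGy) and were given CD45.2+ BM cells of *Shp2E76K/+;LysM-Cre+* mice, which carry an activated Shp2 allele in cells of the LysM lineage, mixed in equal number with CD45.1+ competitor cells of Boy/J mice. The WT group was of C57BL/6J genotype. The labels name no donor and list no treatment for it, so the graft above is not established for that group. The other 4 groups were leptin-deficient *Ob/Ob* mice on a C57BL/6J background, which are obese. From 8 weeks after transplantation the *Ob/Ob* mice were treated for 30 days with vehicle (Vehicle), with the GLP-1R agonist beinaglutide at 3 mg/kg (GLP1R), with an anti–IL-17A antibody at 200 µg per mouse 3 times a week (antiIL17A), or with both (Combo). The mice were 12 to 14 weeks old and of both sexes according to the labels. The time to which this age refers is not clear, and the paper gives a lower age range for recipients at transplantation. Cells were not separated by donor, so mutant, competitor and remaining host cells cannot be told apart, and the labels name no donor for single libraries. The labels speak of 3 mice per group but do not tie a library to a mouse, and p-values below measure the spread between libraries.

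BM libraries held 31086184 to 39925495 counts and ATM libraries 24876074 to 45300263. The biological coefficient of variation was 3.51% in BM and 32.5% in ATMs, so that far smaller changes passed the test in BM. Whether the small BM spread is that between animals cannot be told, as no library is tied to a mouse. The WT 1 library of BM differed more from WT 2 and WT 3 than these did from each other (mean chi-square per gene of 34.9 and 26.7, against 2.94). Several ATM libraries held transcripts of cells other than macrophages, and these values stand beside the results that they accompany. In bulk RNA, fewer dividing cells and less RNA per dividing cell cannot be told apart.

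The promoters of these genes are known for 2 short elements, the cell cycle genes homology region (CHR, TTTGAA) and the CCAAT box (CCAAT), through which the DREAM and MuvB complexes, *Foxm1* and NF-Y act. RefSeq (GRCm38.p6) held promoters, each 250 bases before and 50 after a start site, for 42 of the 51 members. TTTGAA or its reverse complement TTCAAA was found in the promoters of 32 of the 42 (76.2%), against 17.9% of all 32851 promoters of the same length. CCAAT or its reverse complement ATTGG was found in 29 of the 42 (69.0%), against 37.4% of all, and both motifs in 26 (61.9%), against 6.95%. The strings can share bases where they abut, which occurred in the promoters of *Cdca8* and *Ube2c*. The 150 bases before the start site are printed for the members of a fixed set of 10 genes that held both motifs, and for *Pttg1*, chosen after its values had been seen because it went against most other members. Capitals mark either motif on either strand, and the sequences run 5′ to 3′ toward the gene, with coordinates of GRCm38.
*Mki67*, chr7:135716380-135716529, minus strand: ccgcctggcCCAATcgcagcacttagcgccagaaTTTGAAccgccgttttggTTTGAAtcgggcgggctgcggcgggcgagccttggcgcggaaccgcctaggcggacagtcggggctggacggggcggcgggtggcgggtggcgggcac
*Top2a*, chr11:99024190-99024339, minus strand: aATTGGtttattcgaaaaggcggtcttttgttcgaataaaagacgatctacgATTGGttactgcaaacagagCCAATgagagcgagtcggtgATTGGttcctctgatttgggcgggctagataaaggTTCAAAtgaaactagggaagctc
*Cdk1*, chr10:69352913-69353062, minus strand: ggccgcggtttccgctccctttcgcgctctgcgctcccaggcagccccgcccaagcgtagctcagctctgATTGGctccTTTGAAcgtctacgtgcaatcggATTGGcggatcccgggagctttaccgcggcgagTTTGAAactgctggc
*Cdc20*, chr4:118437344-118437493, minus strand: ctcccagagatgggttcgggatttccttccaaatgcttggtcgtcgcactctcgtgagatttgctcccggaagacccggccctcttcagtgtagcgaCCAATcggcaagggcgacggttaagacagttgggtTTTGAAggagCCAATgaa
*Plk1*, chr7:122159285-122159434, plus strand: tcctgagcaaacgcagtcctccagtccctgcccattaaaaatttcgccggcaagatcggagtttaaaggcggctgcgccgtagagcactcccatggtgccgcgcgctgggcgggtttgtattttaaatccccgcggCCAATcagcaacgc
*Pttg1*, chr11:43425982-43426131, minus strand: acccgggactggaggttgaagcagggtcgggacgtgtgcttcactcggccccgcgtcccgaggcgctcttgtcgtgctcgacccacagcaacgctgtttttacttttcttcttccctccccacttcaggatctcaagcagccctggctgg
*Mki67* and *Cdk1* each showed 2 CHR strings in the printed stretch, and *Top2a* showed 1 CHR string and 4 CCAAT strings. The CHR string of *Plk1* lay after its start site and is not printed. Neither motif occurred in the 300 bases of *Pttg1*, nor in those of 6 other members, *Birc5*, *Mad2l1*, *Melk*, *Ncaph*, *Nuf2* and *Nusap1*. In the GENCODE M21 model, however, *Pttg1* starts further upstream, at chr11:43426251. The searched stretch lies within that model, and the bases before its start were not searched. A match is a string of letters and not a measured binding site.

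Members lay on 17 chromosomes, with at most 8 on 1 chromosome. Reads over several genes were counted for each gene and without regard to strand, so exons shared with a neighbour add its reads. In the GENCODE M21 models 13 members shared exon bases with another gene, and 6 shared over 10% of them. The largest share was that of *Kif20a*, for which 29.3% of the exon bases were shared with Cdc23, followed by *Ube2c* with 22.8% (Tnnc2), *Kif4* with 15.1% (Pdzd11), *Ncapg* with 13.4% (Lcorl), *Ccna2* with 12.5% (Exosc9) and *Prc1* with 11.1% (Rccd1). Their values are less certain for that reason, while *Pttg1* shared none.

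The mean level of the members was higher in every treated *Ob/Ob* group than in Vehicle in both tissues. On the TMM scale it was highest in Combo, which in BM depends on the scaling. The level of the group of genes in a library was taken as the mean over the 51 members of log2(normalized count + 1), where a normalized count is the raw count scaled to the TMM-adjusted size of an average library. In ATMs this mean was 7.62 to 7.72 in the WT libraries, 5.91 to 6.10 in Vehicle, 8.15 to 8.20 in GLP1R, 9.08 to 9.15 in antiIL17A and 9.77 to 9.88 in Combo. No 2 groups overlapped, and Vehicle was the lowest. In BM it was 11.74 to 11.77 in WT, 11.80 to 11.81 in Vehicle, 12.01 to 12.02 in GLP1R, 11.93 to 11.94 in antiIL17A and 12.07 to 12.08 in Combo. Groups did not overlap here either, but the whole range of BM was far smaller than that of ATMs, and WT was the lowest group. The order in BM changed without TMM factors. As a share of all counts of a library, with no TMM factor, the members made up 0.654% to 0.662% in WT, 0.619% to 0.623% in Vehicle, 0.867% to 0.877% in GLP1R, 0.784% to 0.791% in antiIL17A and 0.763% to 0.765% in Combo. By that measure Vehicle was the lowest group of BM and Combo the lowest of the 3 treated groups.

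**Figure D1:**
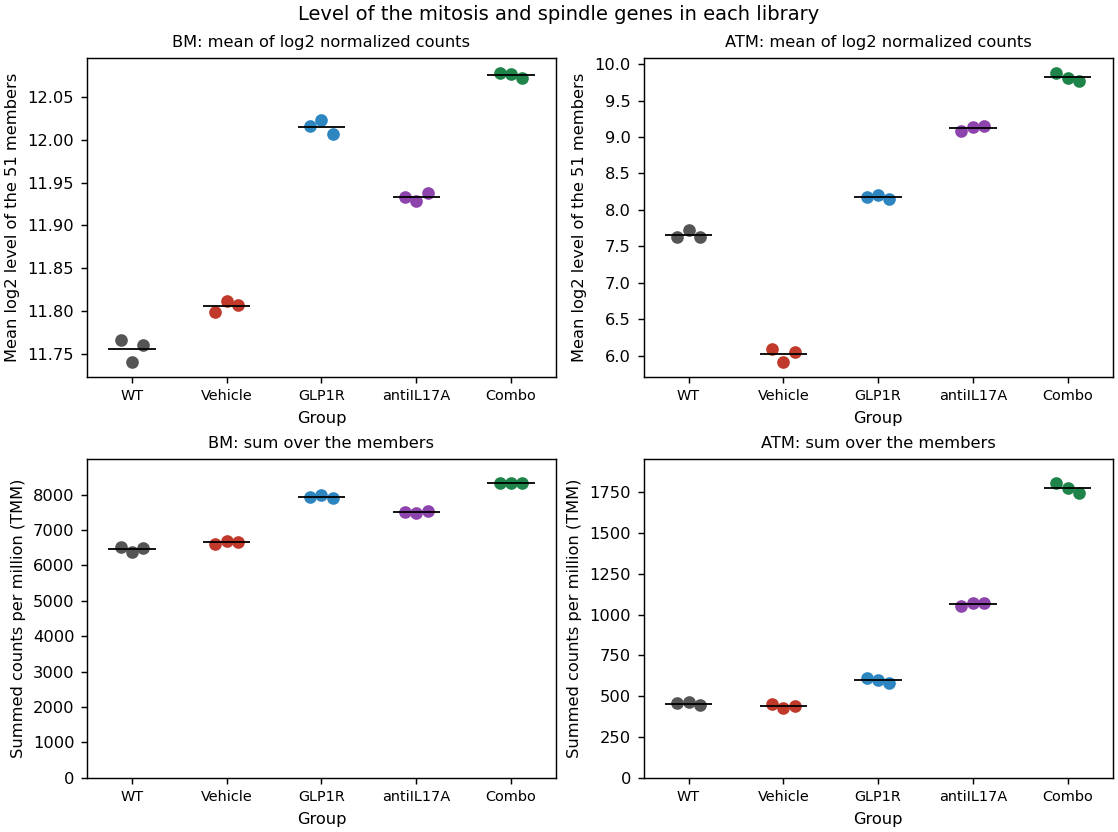
Level of the 51 mitosis and spindle genes in each library, as the mean log2 normalized count (top; axes do not start at 0 and differ in range) and as summed CPM (bottom), in BM (left) and ATMs (right). Points are libraries and lines are group means of 3 libraries. The mean log2 level of the Vehicle ATM libraries lies at 5.91 to 6.10, under every other ATM library, while their summed CPM overlap those of WT.

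The sum of the members' CPM, which are counts scaled to the TMM library size, followed the same order in the treated groups of ATMs, but it did not separate Vehicle from WT. It was 446 to 463 in WT, 426 to 451 in Vehicle, 579 to 609.9 in GLP1R, 1053 to 1074 in antiIL17A and 1745 to 1809 in Combo. Few genes made up most of the Vehicle sum. *Pttg1* alone made up 37.5% to 38.1% of it and *Ube2c* 13.8% to 14.9%, against 10.6% to 11.6% and 4.72% to 5.96% in WT. Without *Pttg1*, the members' summed normalized counts were 8740 to 9366 in Vehicle and 13250 to 13580 in WT, which do not overlap. In BM the sum was 6384 to 6507 in WT, 6613 to 6681 in Vehicle and 8321 to 8333 in Combo.

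**Figure D2:**
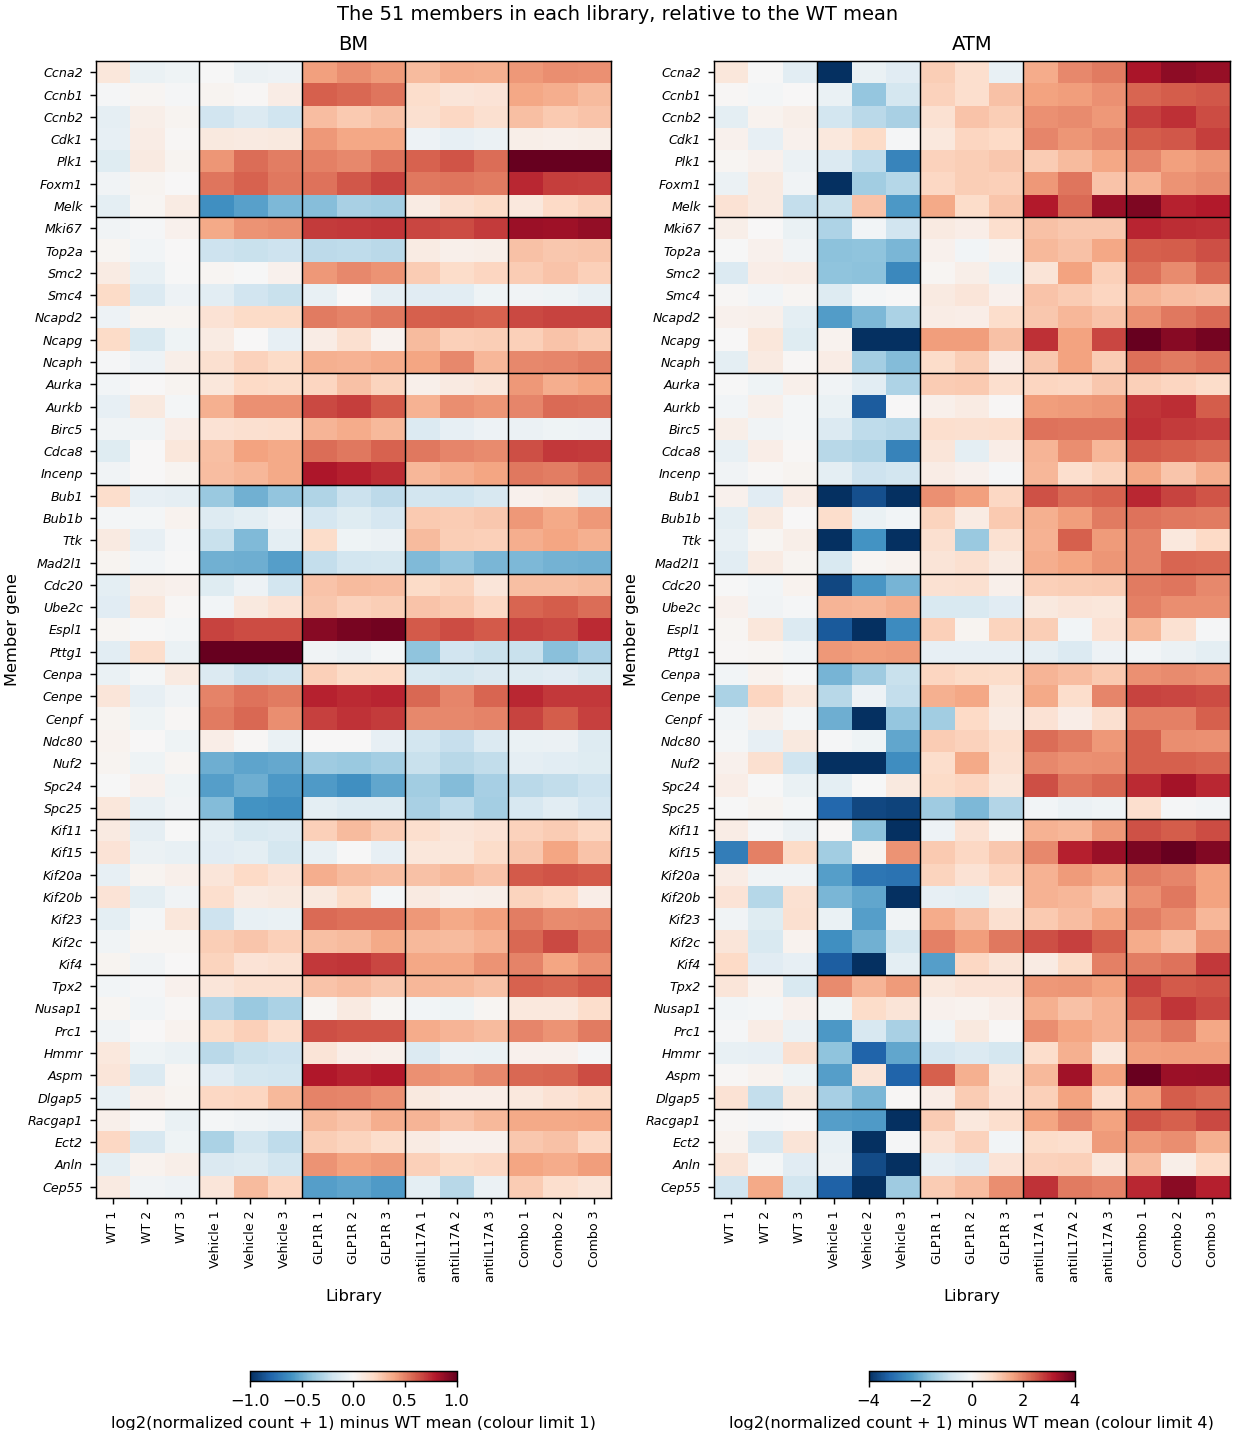
The 51 members (rows, by role, lines between roles) in the 15 libraries of BM (left) and ATMs (right), as log2(normalized count + 1) minus the mean of the WT libraries. The colour scale ends at 1 in BM and at 4 in ATMs, and values beyond it take the end colour. *Pttg1* in Vehicle stands out as high in both tissues, while most other members of the Vehicle ATM libraries lie below WT.

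In ATMs the first comparison asked how Vehicle-treated *Ob/Ob* mice differed from the WT group. The labels list the same irradiation doses for the WT libraries but name no donor and no treatment for them. The paper describes the WT mice of its BM comparison as recipients of the mutant graft. A figure legend for the ATMs instead names WT donor cells in the group compared. The genotype of the mouse, the graft, the transplantation and the 30 days of vehicle therefore cannot be told apart here. Of the 51 members, 26 were lower in Vehicle than in WT and 3 were higher (edgeR quasi-likelihood test, Benjamini-Hochberg adjusted p below 0.05 over all genes, called FDR here). That is 51% lower and 5.88% higher, against 32.6% and 24.3% of all genes. The median log2 fold change was -1.04 for the members and -0.21 for all genes. With a log2 fold change beyond 1 in either direction as well, 25 members passed (49.0%), against 35.4% of all genes. The 3 members that rose were *Pttg1*, *Ube2c* and *Tpx2*.

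Each of the 9 roles held at least 2 members that fell in the Vehicle ATM libraries. *Top2a*, the topoisomerase that untangles sister chromatids, was at 531, 614 and 487 normalized counts in WT and 172, 178 and 153 in Vehicle (log2 fold change -1.70 ± 0.14, adjusted p = 5.96e-08). *Cdc20*, the activator of the anaphase-promoting complex, was at 408, 382 and 450 in WT and 32.1, 82.2 and 114 in Vehicle (-2.45 ± 0.29, adjusted p = 2.86e-06). *Spc25*, a subunit of the NDC80 complex that binds microtubules at the kinetochore, was at 599, 645 and 566 in WT and 66.8, 47 and 44.9 in Vehicle (-3.50 ± 0.27, adjusted p = 1.84e-08). In these 3 genes no Vehicle library reached the lowest WT library. *Racgap1*, a part of the centralspindlin complex of the dividing cell's midzone, was at 523, 482 and 504 in WT and 109.5, 104 and 26.9 in Vehicle (-2.64 ± 0.31, adjusted p = 2.64e-06).

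The widest falls were those of genes nearly without reads in Vehicle. *Bub1*, a checkpoint kinase, had raw counts of 88, 64 and 105 in WT and 0, 5 and 0 in Vehicle (log2 fold change -5.25 ± 0.64, adjusted p = 4.23e-06). *Nuf2*, another NDC80 subunit, had 83, 131 and 46 in WT and 0, 0 and 10 in Vehicle (-4.27 ± 0.77, adjusted p = 0.000212), and the checkpoint kinase *Ttk* had 45, 66 and 71 in WT and 0, 8 and 0 in Vehicle (-4.07 ± 0.98, adjusted p = 0.00227). At such counts the size of the fold change rests on the prior count of the fit, and only the direction is firm. *Espl1*, which encodes separase, and *Cep55*, which acts in the final cut between daughter cells, were likewise near 0 in Vehicle, with log2 fold changes of -3.56 ± 0.71 and -3.17 ± 0.83 (adjusted p = 0.000492 and 0.00409).

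Among the other genes of the fixed set, *Mki67*, whose product is the proliferation marker Ki-67, was at 344, 294 and 243 in WT and 123, 272 and 169 in Vehicle, which overlap, although the change passed the test (-0.65 ± 0.23, adjusted p = 0.0249). *Ccnb1*, encoding cyclin B1, was at 316, 285 and 307 in WT and 252, 103 and 187 in Vehicle (-0.74 ± 0.24, adjusted p = 0.0143). The mitotic kinase gene *Plk1* was at 249, 265 and 202 in WT and 160.3, 116 and 37.4 in Vehicle (-1.18 ± 0.34, adjusted p = 0.00816). The *Ccnb1* and *Plk1* libraries did not overlap. *Birc5*, encoding survivin of the chromosomal passenger complex, had a log2 fold change of -0.87 ± 0.17, and *Foxm1* one of -1.88 ± 0.60 (adjusted p = 0.000359 and 0.0149). *Cdk1* (0.39 ± 0.22, adjusted p = 0.136) and *Aurkb* (-0.64 ± 0.46, adjusted p = 0.258), the passenger complex kinase, did not pass. The *Aurkb* values of Vehicle were 155, 17.6 and 190.1, which shows how far replicates of the low ATM genes could differ.

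*Pttg1*, which encodes securin, the inhibitor of separase, ran opposite to most other members. It was at 1738, 1777 and 1570.1 in the WT libraries, 5616, 5389.5 and 5505 in Vehicle, 1334, 1353 and 1344 in GLP1R, 1325, 1159.5 and 1469 in antiIL17A and 1572, 1443 and 1304 in Combo. The Vehicle libraries were more than 3 times as high as any other, and the treated groups lay at or under WT. The log2 fold change was 1.70 ± 0.10 for Vehicle vs WT (adjusted p = 3.66e-10). Against Vehicle it was -2.03 ± 0.10 in GLP1R, -2.06 ± 0.10 in antiIL17A and -1.93 ± 0.10 in Combo, with adjusted p of 5.28e-11, 3.72e-11 and 9.88e-11. Combo did not differ from WT past the threshold (-0.24 ± 0.09, adjusted p = 0.0569). Per kilobase of exon, *Pttg1* was the most abundant member in WT and in Vehicle ATMs, at 848 and 2752 normalized counts per kilobase, followed in each by *Ube2c* at 308 and 802.

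*Ube2c*, the ubiquitin-conjugating enzyme of the anaphase-promoting complex, and *Tpx2*, which activates Aurora A on the spindle, shared the rise in Vehicle but not the later course. *Ube2c* was at 902, 725 and 780.1 in the WT libraries, 2069, 2012 and 2172 in Vehicle, 525, 524 and 580.3 in GLP1R, 1058, 1120.4 and 1097 in antiIL17A and 3211, 2911 and 2906 in Combo. It was higher in Vehicle than in WT (1.38 ± 0.10, adjusted p = 7.56e-09), lower than Vehicle in GLP1R (-1.94 ± 0.10, adjusted p = 1.58e-10) and antiIL17A (-0.93 ± 0.10, adjusted p = 6.67e-07), and highest in Combo (0.53 ± 0.10, adjusted p = 0.000269 against Vehicle). *Tpx2* was at 316, 249 and 148 in the WT libraries, 842, 579.8 and 745 in Vehicle, 306, 329 and 329 in GLP1R, 756, 773 and 693 in antiIL17A and 1472, 1257 and 1314 in Combo. Its Vehicle and antiIL17A libraries overlapped, with log2 fold changes against Vehicle of -1.17, 0.04 and 0.90 in GLP1R, antiIL17A and Combo and adjusted p of 0.000304, 0.903 and 0.00246.

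**Figure D3:**
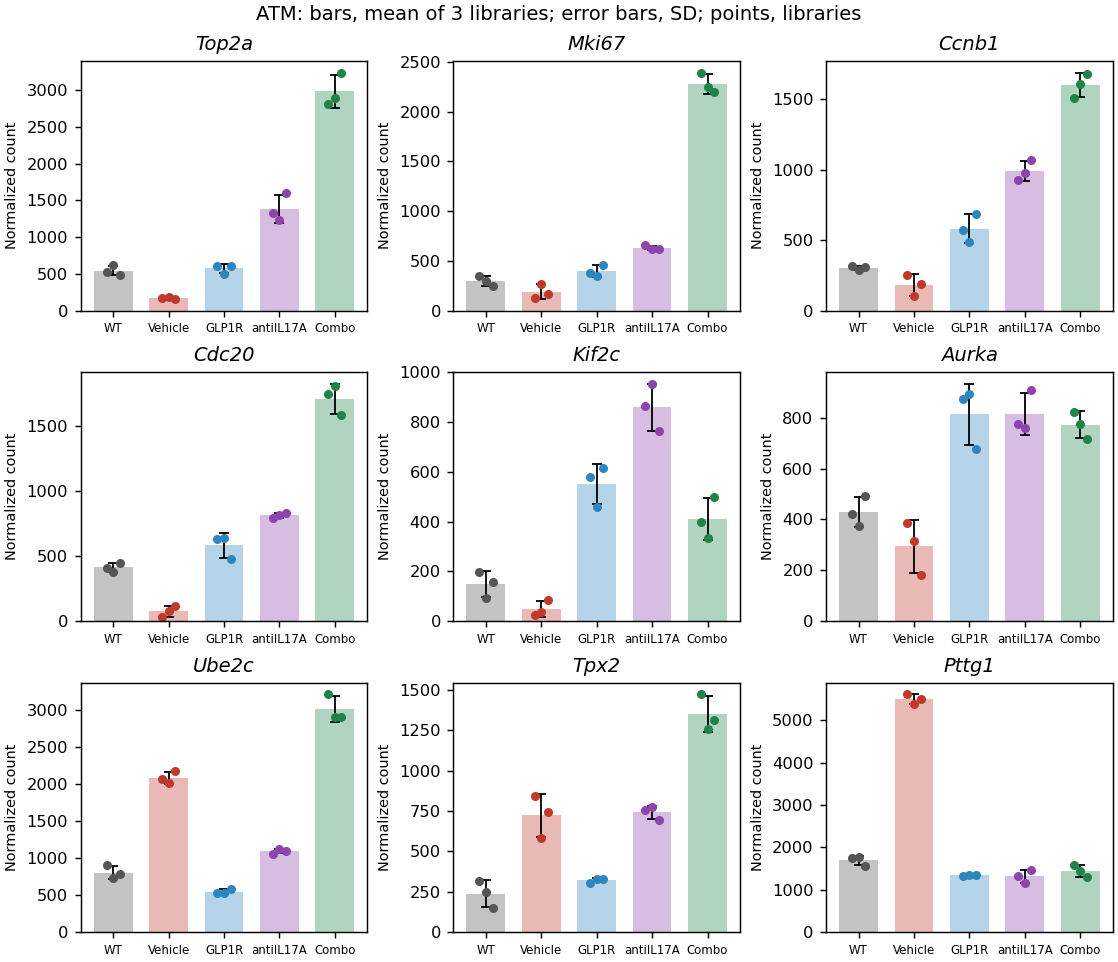
Normalized counts of 9 members in the ATM libraries of the 5 groups. Bars are means of 3 libraries, error bars SD and points libraries, and each vertical axis starts at 0. *Top2a*, *Mki67*, *Ccnb1* and *Cdc20* are lowest in Vehicle and highest in Combo, *Kif2c* is highest in antiIL17A, *Aurka* is alike in the 3 treated groups, and *Pttg1* is high in Vehicle only, at 5616, 5389.5 and 5505.

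The next comparisons asked what each treatment did to *Ob/Ob* recipients. The 3 treated groups were compared with the same Vehicle libraries, so their results are not independent of each other. Against Vehicle, 37 members were higher and 3 lower in GLP1R, 48 and 2 in antiIL17A, and 50 and 1 in Combo. Of all genes, 31.8%, 33.1% and 25.0% were higher and 22.0%, 25.0% and 23.7% lower. The members' shares higher were 72.5%, 94.1% and 98.0%. Their median log2 fold changes were 1.68, 2.78 and 3.43, against 0.19, 0.17 and 0.00 for all genes. Beyond a log2 fold change of 1, 36, 48 and 49 members passed, against 31.8%, 35.5% and 26.4% of all genes.

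Among the kinases, cyclins and their regulators, 4 of 7 members rose with GLP1R and all 7 with antiIL17A and with Combo. *Ccna2*, encoding cyclin A2, was at 320.4, 229 and 174 in the WT libraries, 0, 194 and 172 in Vehicle, 465, 371 and 192 in GLP1R, 654, 891 and 999.9 in antiIL17A and 2242, 2793 and 2653 in Combo. The Combo libraries were far above all others, and the Vehicle libraries ranged from 0 to 194. Its log2 fold changes against Vehicle were 1.50, 2.81 and 4.41 in GLP1R, antiIL17A and Combo (adjusted p = 0.068, 0.00215 and 8.55e-05). *Ccnb1* was at 316, 285 and 307 in the WT libraries, 252, 103 and 187 in Vehicle, 570.4, 484 and 689 in GLP1R, 929, 976 and 1068 in antiIL17A and 1512, 1613 and 1682 in Combo, with log2 fold changes of 1.68, 2.45 and 3.14 (adjusted p = 2.00e-05, 3.38e-07 and 2.82e-08). Its groups did not overlap and stood in the order Vehicle, WT, GLP1R, antiIL17A, Combo. *Ccnb2*, encoding cyclin B2, stood in the same order at 275, 393 and 422 in the WT libraries, 215, 170.3 and 144 in Vehicle, 548, 797 and 702 in GLP1R, 1275, 1331 and 1183 in antiIL17A and 2370.5, 2731 and 2195 in Combo. *Cdk1* was at 269.8, 345 and 195 in Vehicle, 272, 366 and 356 in GLP1R, 796, 689.6 and 775 in antiIL17A and 1082, 1140.4 and 1383 in Combo, with log2 fold changes of 0.29, 1.48 and 2.15 (adjusted p = 0.268, 2.81e-05 and 7.06e-07). For *Cdk1*, therefore, GLP1R and Vehicle overlapped. *Plk1* rose by 2.18, 2.48 and 2.96 (adjusted p = 7.17e-05, 1.88e-05 and 4.00e-06) and *Foxm1* by 2.78, 3.58 and 3.56 on the log2 scale (adjusted p = 0.00122, 0.000149 and 0.000192).

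Of the genes of chromosome structure and proliferation, all 7 rose with each treatment. *Top2a* was at 613, 504 and 601 in GLP1R, 1328, 1234 and 1600.4 in antiIL17A and 2817, 2901 and 3237 in Combo, with log2 fold changes against Vehicle of 1.77, 3.05 and 4.15 (adjusted p = 3.95e-08, 5.47e-11 and 2.22e-12). *Mki67* was at 372, 348 and 462 in GLP1R, 655, 616 and 619 in antiIL17A and 2389.5, 2245 and 2198 in Combo, with log2 fold changes of 1.07, 1.75 and 3.60 (adjusted p = 0.000924, 8.54e-06 and 4.37e-09). For both genes Combo stood well above either single agent. *Smc4*, a condensin subunit, had the smallest changes of the 7, with log2 fold changes of 0.53, 1.19 and 1.45 (adjusted p = 0.00372, 1.78e-06 and 2.56e-07). *Ncapg*, another condensin subunit, had raw counts of 48, 0 and 0 in Vehicle and 1074, 811 and 881 in Combo (5.23 ± 0.91, adjusted p = 0.000186).

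Among the Aurora kinases and the passenger complex, 4 of 5 members rose with GLP1R and all 5 with antiIL17A and Combo. *Birc5* was at 147, 107 and 102 in Vehicle, 346, 339 and 341 in GLP1R, 978, 947 and 964 in antiIL17A and 1645, 1509 and 1434 in Combo, with log2 fold changes of 1.52, 3.02 and 3.68 (adjusted p = 1.15e-06, 3.73e-10 and 4.80e-11). The groups rose in steps without overlap. *Aurkb* had log2 fold changes of 0.83, 2.34 and 3.40 (adjusted p = 0.147, 0.00055 and 2.76e-05). *Aurka*, the spindle pole kinase, behaved otherwise. It was at 873, 893 and 676 in GLP1R, 774, 761 and 910.4 in antiIL17A and 824, 776 and 718 in Combo, which overlap, with log2 fold changes against Vehicle of 1.46, 1.47 and 1.39 (adjusted p = 5.23e-05, 4.58e-05 and 9.63e-05).

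All 4 checkpoint genes rose with antiIL17A and Combo, and 3 with GLP1R. *Bub1* reached 332, 289.9 and 168 in GLP1R, 551, 447 and 478 in antiIL17A and 765, 610.4 and 532 in Combo, from 5 reads over the 3 Vehicle libraries, with log2 fold changes of 6.71, 7.61 and 7.98 (adjusted p = 2.26e-07, 4.69e-08 and 3.43e-08). *Ttk*, with 8 reads in Vehicle, was at 174, 348 and 219 in antiIL17A and, overlapping with these, at 263, 89.4 and 116 in Combo (5.96 ± 1.02 and 5.29 ± 1.00). These are lifts from a floor of nearly 0 reads, whose size is loosely fixed. *Cdc20* was at 634, 641 and 475 in GLP1R, 797, 817 and 835 in antiIL17A and 1744, 1805 and 1582 in Combo, with log2 fold changes of 2.95, 3.43 and 4.50 (adjusted p = 4.17e-07, 7.01e-08 and 4.88e-09). *Espl1* reached a similar level in all treated groups, with log2 fold changes of 4.20, 4.06 and 4.23 (adjusted p = 0.000139, 0.000166 and 0.000148). Thus *Cdc20* and *Espl1* rose where *Pttg1* of the same role fell.

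All 7 kinetochore genes rose with each treatment. *Nuf2* was at 145, 253 and 134 in GLP1R, 337, 312 and 321 in antiIL17A and 466, 469 and 449 in Combo, from 10 reads in 1 of the 3 Vehicle libraries (5.16 ± 0.77, 6.03 ± 0.78 and 6.54 ± 0.79). *Cenpa*, the histone H3 variant of centromeres, was at 138, 185 and 268 in Vehicle, 917, 854 and 825 in GLP1R, 1293, 1179 and 1030.2 in antiIL17A and 1782, 1850.1 and 1794 in Combo. Its groups did not overlap, with log2 fold changes of 2.14, 2.57 and 3.20 (adjusted p = 1.20e-07, 1.31e-08 and 1.36e-09). Of the 7 kinesins, 4 rose with GLP1R and all with antiIL17A and Combo. *Kif20a*, which acts at the midzone, had log2 fold changes of 3.45, 4.20 and 4.54 (adjusted p = 7.92e-09, 7.71e-10 and 3.96e-10). *Kif2c*, which removes tubulin from microtubule ends at the centromere, was at 199, 92.6 and 158 in the WT libraries, 25.4, 36.7 and 86.8 in Vehicle, 578, 461 and 615 in GLP1R, 863, 952 and 763 in antiIL17A and 400, 332 and 499 in Combo. It was the single member lower in Combo than in antiIL17A (-1.07 ± 0.34, adjusted p = 0.0265), and its log2 fold changes against Vehicle were 3.48, 4.12 and 3.05 (adjusted p = 1.66e-06, 2.78e-07 and 7.09e-06).

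Of the 6 spindle-associated members, 4 rose and 1, *Tpx2*, fell with GLP1R, 5 rose with antiIL17A, and all 6 rose with Combo. *Nusap1*, a microtubule bundling protein, was at 267, 498 and 431 in Vehicle, 337, 326 and 361 in GLP1R, 806, 680.4 and 776 in antiIL17A and 1629, 2163 and 1853 in Combo, with log2 fold changes of -0.22, 0.92 and 2.24 (adjusted p = 0.367, 0.000827 and 1.43e-07). *Nusap1* was 1 of 7 members with a log2 fold change above 0 in Vehicle vs WT, of which *Pttg1*, *Ube2c* and *Tpx2* passed the test. All 4 cytokinesis genes rose with antiIL17A and Combo, and 2 with GLP1R. *Racgap1* was at 1028, 679 and 806 in GLP1R, 1502, 1928 and 1537 in antiIL17A and 2859.5, 2647 and 3155 in Combo, with log2 fold changes of 3.37, 4.35 and 5.16 (adjusted p = 1.86e-07, 1.02e-08 and 2.06e-09). *Cep55* had log2 fold changes of 4.18, 5.13 and 6.04 from raw Vehicle counts of 3, 0 and 11 (adjusted p = 0.000558, 9.23e-05 and 2.95e-05).

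Combo was also set against each single agent and against WT. In ATMs 39 members were higher in Combo than in GLP1R and 0 lower, against 15.2% and 24.6% of all genes. The count of 0 lower was the same at an unadjusted p below 0.05 and by DESeq2. Against antiIL17A, 18 members were higher and 1 lower, against 10.7% and 17.9%. The largest rises over antiIL17A past the test were those of *Mki67* (1.85 ± 0.22, adjusted p = 9.08e-06), *Cenpf* (1.65 ± 0.56), *Ube2c* (1.46 ± 0.10), *Nusap1* (1.32 ± 0.19), *Top2a* (1.11 ± 0.13) and *Cdc20* (1.07 ± 0.25). Over GLP1R the largest rises were those of *Kif15*, *Ccna2*, *Aurkb*, *Mki67*, *Ube2c* and *Nusap1*, at 2.95, 2.91, 2.58, 2.53, 2.47 and 2.46 on the log2 scale. Of the fixed set, 8 of 10 genes were higher in Combo than in GLP1R and 6 of 10 than in antiIL17A.

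Combo ATMs did not return to the WT level of these genes but lay above it. Of the 51 members 45 were higher in Combo than in WT and 0 lower (88.2% higher), against 17.8% and 23.2% of all genes. At an unadjusted p below 0.05, 1 member was lower, and DESeq2 also called 1. The median log2 fold change was 2.13, against -0.12 for all genes, and 44 members passed the fold limit, against 21.6% of genes. All 10 genes of the fixed set were higher, by 1.69 to 2.96 on the log2 scale. The largest changes were those of *Ncapg* (3.78 ± 0.82, adjusted p = 0.00163), *Aspm* (3.67 ± 0.86, adjusted p = 0.00276), a spindle pole protein gene, and *Ccna2* (3.41 ± 0.66, adjusted p = 0.000625), followed by *Melk*, *Spc24* and *Kif15* at 3.25, 3.12 and 2.97. The members that did not pass were *Pttg1*, *Espl1*, *Spc25*, *Ttk*, *Ect2* and *Anln*. *Spc25*, for example, was at 599, 645 and 566 in WT and 962, 586 and 555 in Combo, and these overlap.

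**Figure D4:**
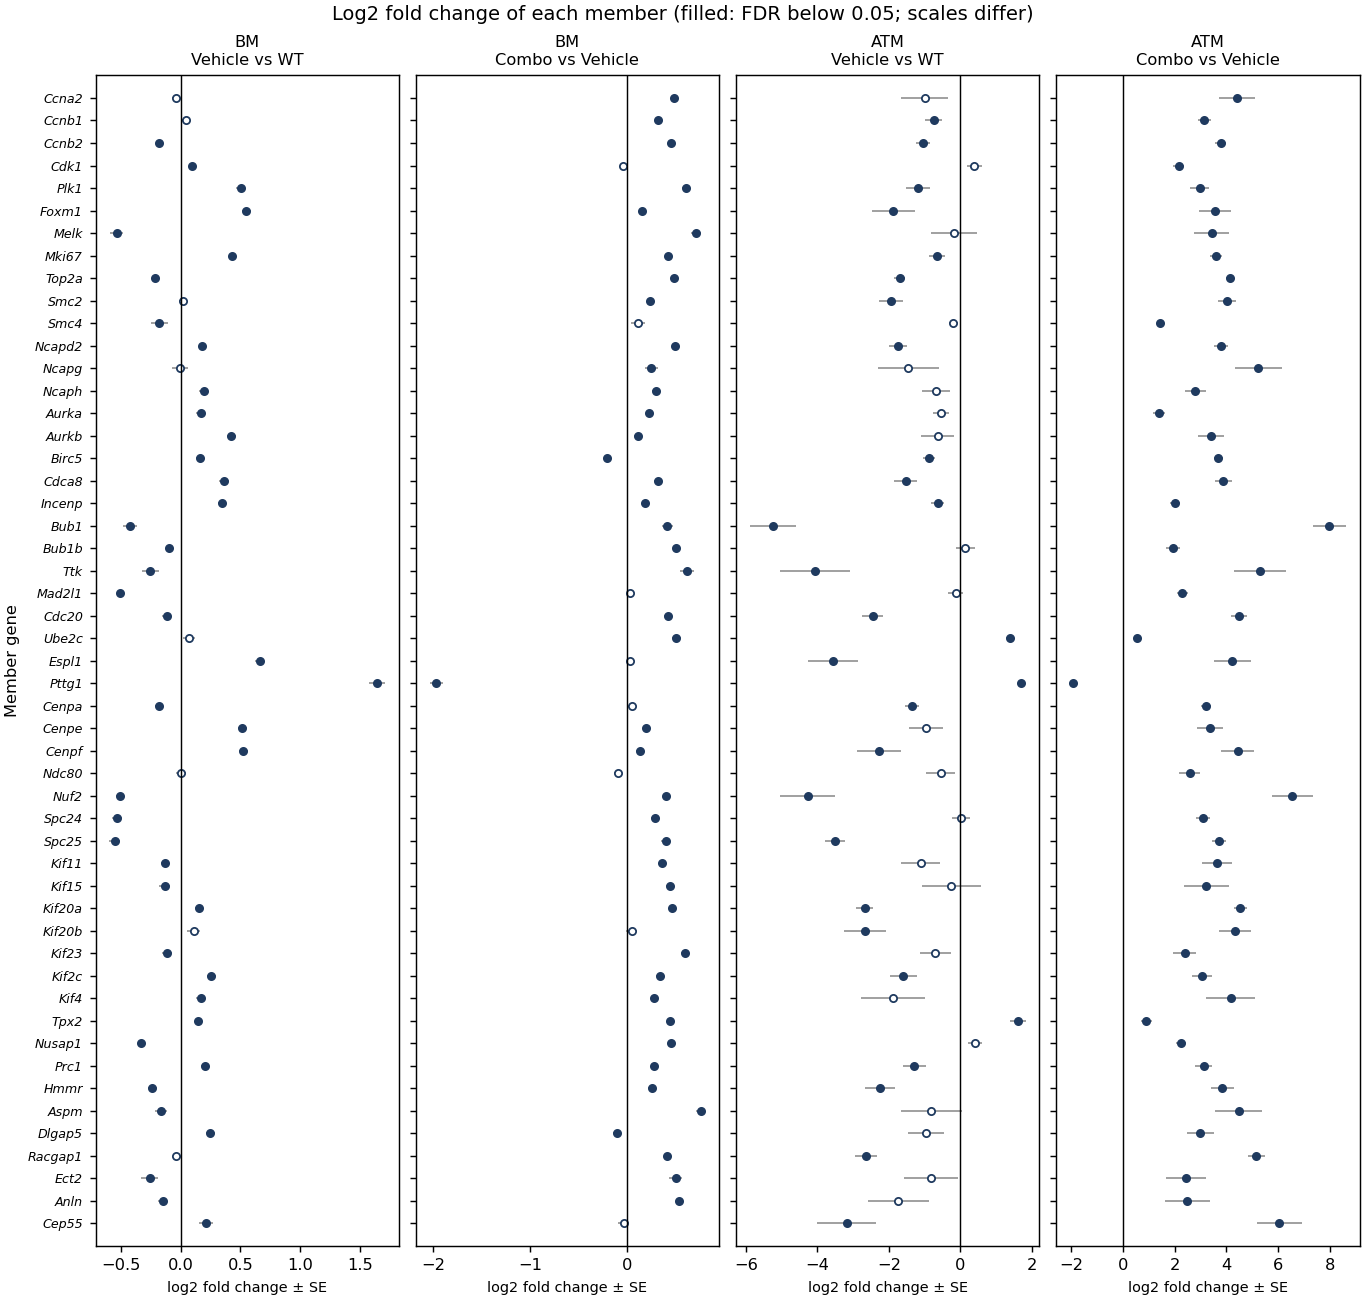
Log2 fold change with its SE of each member (rows, by role) for Vehicle vs WT and Combo vs Vehicle in BM and ATMs. Filled points passed an FDR of 0.05, open points did not, and the horizontal scales differ between panels. In ATMs most members lie left of 0 in Vehicle vs WT and all but *Pttg1* lie right of 0 in Combo vs Vehicle. In BM most changes are under 1 and *Pttg1* is the exception in both panels.

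Other genes of the cell cycle were read from 4 further lists, and in ATMs most genes of DNA replication and most other mitotic genes were higher in Combo than in Vehicle. Of 42 mitotic genes that are no members, 13 were lower and 4 higher in Vehicle than in WT, and 35 were higher and 2 lower in Combo than in Vehicle (median log2 fold change 1.79). Of 24 genes of DNA replication, 11 were lower and 3 higher in Vehicle, and 20 were higher and 1 lower in Combo (median 1.73). The mitotic kinase gene *Nek2* fell in Vehicle (-3.59 ± 0.42, adjusted p = 2.80e-06 against WT) and rose in Combo (4.27 ± 0.43, adjusted p = 5.62e-07). Of all genes 32.6% were lower and 24.3% higher in Vehicle, and 25.0% were higher and 23.7% lower in Combo, so the count of the other mitotic genes that were lower in Vehicle was near the background. *Rrm2*, encoding the small subunit of ribonucleotide reductase, rose in Combo as well (3.45 ± 0.18, adjusted p = 2.81e-10). Of 7 G1 cyclins, CDK4/6 and *Myc* genes, 2 were higher and 4 lower in Combo. Of 15 CDK inhibitors, pocket proteins and antiproliferative genes 6 were higher and 7 lower. *Cdkn1a*, the CDK inhibitor p21, was at 14969, 15540.3 and 16240 in the WT libraries, 54250, 55163 and 58464 in Vehicle, 25664, 27668 and 26881 in GLP1R, 17094, 16561 and 14781 in antiIL17A and 11282, 11150.4 and 10879 in Combo. It was highest in Vehicle (1.84 ± 0.05, adjusted p = 8.68e-14 against WT) and lower in Combo than in Vehicle (-2.33 ± 0.05, adjusted p = 9.74e-15).

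The cell composition of the ATM libraries moved with these results, and its part in them was not tested. The summed level of 10 macrophage markers, all measured, was 4764 to 5016 CPM in WT, 3192 to 3428 in Vehicle, 11310 to 11780 in GLP1R, 16280 to 16490 in antiIL17A and 11630 to 11700 in Combo. *Adgre1*, which encodes the F4/80 antigen used in the sort, was at 6387, 6731 and 7619 normalized counts in WT, 1002, 1738 and 1471 in Vehicle and 13434, 13309 and 13111 in Combo. The Vehicle libraries thus had the lowest *Adgre1* level, but the macrophage list was split between Vehicle and WT. Means of *Csf1r*, *C1qa*, *C1qb*, *C1qc*, *Mrc1* and *Lyz2* were also lower in Vehicle. Those of *Cd68* (17460 against 8681), *Cd14* (27430 against 7708) and *Mertk* (1410 against 953) were higher. The neutrophil sum, mostly *S100a8* and *S100a9* (means of 318200 and 210600), was above the macrophage sum in Vehicle. Markers of mature neutrophils, 6 of 7 measured, were at 389 to 402 CPM in WT, 17160 to 18310 in Vehicle, 206 to 209 in GLP1R, 303 to 312 in antiIL17A and 7492 to 7718 in Combo. The libraries in which *Pttg1* was high were those with the highest neutrophil, erythroid, adipocyte and endothelial levels. Immature granulocyte markers, all 7 measured, were at 389.8 to 407 in Combo and at most 34.8 elsewhere, and T and NK cell markers, 5 of 6 measured, were at 669 to 696 in Combo and 80.9 to 103 in Vehicle. Of the 8 measured erythroid markers the level was 6755 to 6834 in Vehicle, 1505 to 1613 in GLP1R, 1213 to 1231 in antiIL17A and 5491 to 5634 in Combo. B cell precursor markers, 4 of 8 measured, were at 254 to 296 in WT and 121 to 138 in Combo. Of the stem and progenitor markers, all 6 measured, the level was 579.7 to 615 in WT and 282 to 305 in Combo. Adipocyte, endothelial and fibroblast markers, 5 of 5 measured each, were at 4001 to 4252, 1534 to 1694 and 4995 to 5330 in Vehicle and 1199 to 1216, 432 to 520.4 and 11360 to 11590 in Combo. Transcripts of epididymis and spermatids, all 6 measured, were at 3033 to 3190 in WT, 366 to 385 in GLP1R, 531 to 568 in antiIL17A and at most 8.98 in Vehicle and Combo, and those of pancreatic acinar cells, 4 of 5 measured, at 561 to 575 in Combo and at most 27.0 elsewhere.

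In BM the members changed by far less, and Vehicle vs WT was mixed. Of the 51 members, 22 were higher and 21 lower in Vehicle (43.1% and 41.2%), against 37.8% and 38.8% of all genes, which is near the background. The median log2 fold change was 0.02, against -0.02 for all genes. The split depends on the scaling. With total counts alone in place of TMM factors, which moved the log2 fold changes of all genes by a median of -0.12, 13 members were higher and 26 lower, with a median of -0.11 for the members and -0.14 for all genes. Rises smaller than 0.12, such as that of *Cdk1*, turn to falls with total counts, and falls become larger. Without the WT 1 library 44 members passed the test, against 43 with it.

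**Figure D5:**
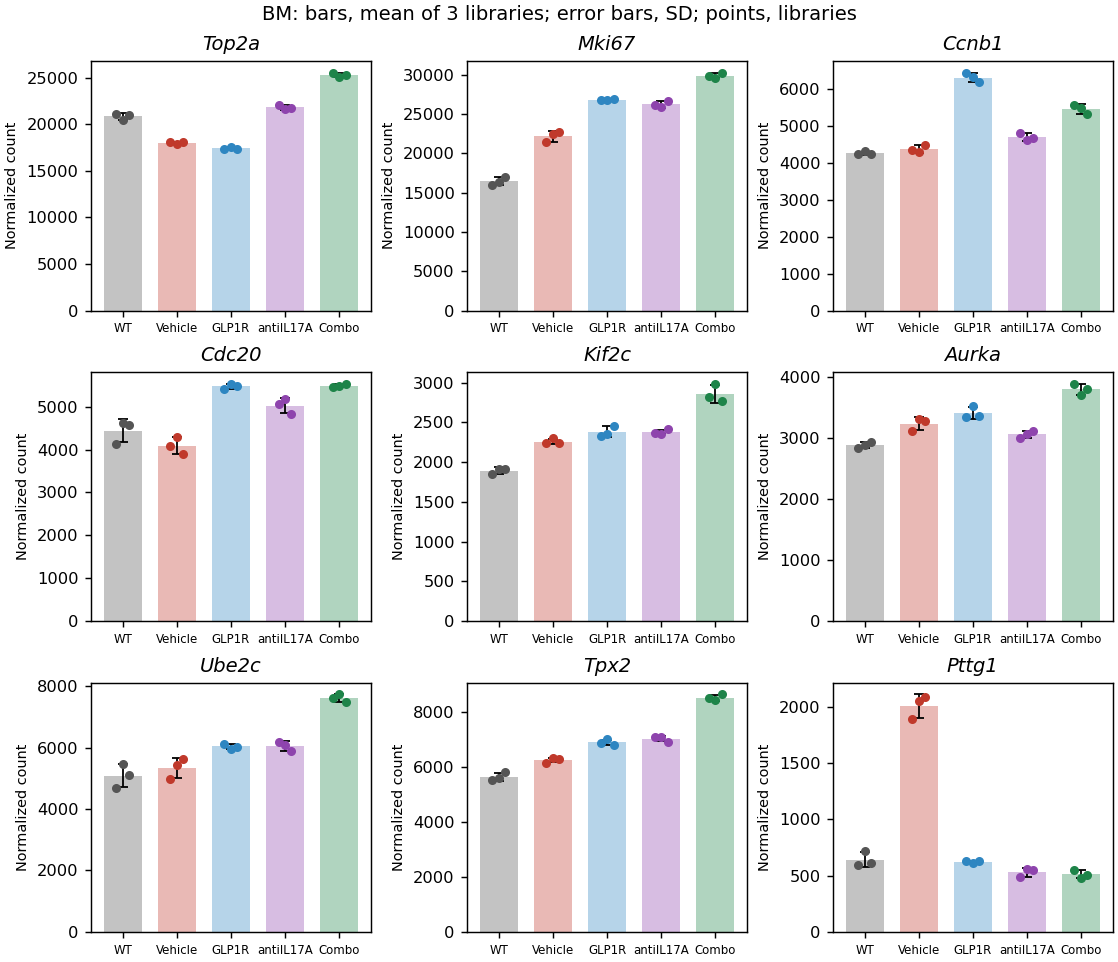
Normalized counts of the same 9 members in the BM libraries of the 5 groups. Bars are means of 3 libraries, error bars SD and points libraries, and each vertical axis starts at 0. *Pttg1* stands at 1886, 2046 and 2081 in Vehicle and lower in every other group. Other members differ between groups too, such as *Mki67*, with means of 16460 in WT and 29900 in Combo.

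On the TMM scale, all 5 genes of the Aurora kinases and the passenger complex were higher in Vehicle BM, and all 4 checkpoint genes were lower. *Aurkb* was at 2787, 3169 and 2919 in WT and 3788, 4057 and 4058 in Vehicle (log2 fold change 0.42 ± 0.04, adjusted p = 7.50e-11), and *Incenp*, the scaffold of the passenger complex, at 6006, 6168 and 6265 in WT and 7631, 7731 and 8004 in Vehicle (0.34 ± 0.03, adjusted p = 1.75e-14). *Birc5* rose less (0.16 ± 0.03, adjusted p = 7.38e-06), and the median movement of all genes by -0.12 with total counts took up most of that rise. *Mad2l1*, which holds *Cdc20* in check, was at 5490.4, 5299 and 5388 in WT and 3865, 3847 and 3686 in Vehicle (-0.51 ± 0.03, adjusted p = 2.59e-18), and *Bub1* at 2459, 2052 and 2045 in WT and 1679, 1557 and 1659 in Vehicle (-0.42 ± 0.06, adjusted p = 1.93e-07). None of these WT and Vehicle libraries overlapped.

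Within the NDC80 complex 3 of 4 subunits fell. *Spc24*, *Spc25* and *Nuf2* changed by -0.54 ± 0.04, -0.55 ± 0.05 and -0.51 ± 0.03 (adjusted p = 5.57e-15, 1.30e-13 and 1.46e-17), whereas *Ndc80* itself gave 0.00 ± 0.04 and did not pass. *Cenpe* and *Cenpf*, motor and scaffold proteins of the outer kinetochore, rose by 0.52 ± 0.04 and 0.52 ± 0.04. The fixed set was mixed as well. *Mki67* was at 16038, 16367 and 16978 in WT and 21394, 22473 and 22668 in Vehicle (0.43 ± 0.02, adjusted p = 3.17e-19), *Foxm1* at 2210.2, 2307 and 2266 in WT and 3274, 3398 and 3252 in Vehicle (0.55 ± 0.04, adjusted p = 4.77e-17) and *Plk1* at 2709, 3139 and 3004 in WT and 3989, 4336 and 4195 in Vehicle (0.50 ± 0.04, adjusted p = 1.82e-13). These 3 were higher in each Vehicle library. *Top2a* was at 21164, 20452 and 20969 in WT and 18092, 17891 and 18105 in Vehicle and fell (-0.21 ± 0.02, adjusted p = 2.94e-11). *Cdk1* rose slightly (0.10 ± 0.03, adjusted p = 0.003), *Cdc20* fell slightly with overlapping libraries (-0.12 ± 0.04, adjusted p = 0.00384), and *Ccnb1* did not pass (0.04 ± 0.03, adjusted p = 0.212). *Espl1* rose (0.66 ± 0.04, adjusted p = 6.46e-19) and *Melk*, a kinase gene driven by *Foxm1*, fell (-0.53 ± 0.06, adjusted p = 3.27e-11).

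*Pttg1* was the single member past a log2 fold change of 1 in Vehicle vs WT of BM (1.96% of the members, against 19.5% of all genes), and it showed the pattern that it had in ATMs. It was at 594, 722 and 612 in the WT libraries, 1886, 2046 and 2081 in Vehicle, 626, 615 and 633 in GLP1R, 484, 559 and 549.5 in antiIL17A and 547, 479.7 and 509 in Combo. The log2 fold change was 1.64 ± 0.06 for Vehicle vs WT (adjusted p = 2.07e-24). Against Vehicle it was -1.68 ± 0.06 in GLP1R, -1.91 ± 0.07 in antiIL17A and -1.97 ± 0.07 in Combo, with adjusted p of 9.49e-25, 2.33e-26 and 1.36e-26. Combo vs WT gave -0.33 ± 0.07 (adjusted p = 0.00013). It was also the single member past the fold limit in each treated group, where 16.7%, 16.1% and 17.7% of all genes passed it in GLP1R, antiIL17A and Combo.

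With treatment most members rose in BM. Against Vehicle 38 were higher and 3 lower in GLP1R, 34 and 7 in antiIL17A, and 40 and 3 in Combo. The shares higher were 74.5%, 66.7% and 78.4%, against 36.5%, 36.4% and 37.9% of all genes, and 36.3%, 36.6% and 35.8% of all genes were lower. Median log2 fold changes of the members were 0.23, 0.17 and 0.32, against 0.01, 0.01 and 0.02 for all genes. These rises were small beside those of ATMs. With total counts alone the medians were 0.47, 0.34 and 0.30, and all genes moved by 0.23, 0.17 and -0.02 relative to the TMM scale. With that scaling 45 members were higher and 3 lower in antiIL17A, and the small falls of *Top2a* in GLP1R and of *Cdk1* in antiIL17A described below lie within the movement of all genes.

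Genes of the spindle and of cytokinesis were among the largest rises with GLP1R. *Aspm* was at 1700.3, 1417 and 1579.5 in the WT libraries, 1442, 1381 and 1376 in Vehicle, 2716, 2666 and 2712 in GLP1R, 2139, 2116 and 2185 in antiIL17A and 2328, 2342 and 2458 in Combo. The GLP1R libraries were highest, with log2 fold changes against Vehicle of 0.95, 0.62 and 0.76 in GLP1R, antiIL17A and Combo (adjusted p = 2.81e-21, 4.54e-15 and 5.08e-18). *Kif23*, the motor of centralspindlin, rose by 0.67, 0.52 and 0.60 (adjusted p = 8.86e-18, 1.75e-14 and 2.36e-16) and *Anln*, encoding anillin of the contractile ring, by 0.58, 0.36 and 0.54 (adjusted p = 3.01e-17, 3.66e-11 and 2.19e-16). *Ccnb1* was at 4341, 4290.1 and 4484 in Vehicle, 6416, 6311 and 6168 in GLP1R, 4802, 4613 and 4665 in antiIL17A and 5570.1, 5477 and 5303 in Combo (0.53, 0.10 and 0.32, adjusted p = 1.89e-19, 0.0022 and 1.32e-12), so that it too was highest in GLP1R. *Cep55* went the other way. It was at 1211, 1389.6 and 1293 in Vehicle, 762, 775 and 754 in GLP1R, 1042, 919 and 1069 in antiIL17A and 1331, 1254 and 1223 in Combo, with log2 fold changes of -0.77, -0.36 and -0.03 (adjusted p = 1.43e-14, 7.30e-07 and 0.619).

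Other members were highest in Combo on the TMM scale. *Plk1* was at 4181, 4115 and 4291 in GLP1R, 4432, 4562 and 4330.1 in antiIL17A and 6320.1, 6379 and 6449.5 in Combo, with log2 fold changes against Vehicle of 0.01, 0.09 and 0.61 (adjusted p = 0.873, 0.0341 and 3.63e-16). *Mki67* was at 26755, 26809 and 26986 in GLP1R, 26203, 25856 and 26678 in antiIL17A and 29849.5, 29603 and 30239 in Combo (0.28, 0.24 and 0.43, adjusted p = 2.71e-13, 9.36e-12 and 2.41e-19). *Top2a* was at 17390.3, 17527 and 17314 in GLP1R, 22084, 21603 and 21767 in antiIL17A and 25519, 25091 and 25271 in Combo (-0.05, 0.28 and 0.49, adjusted p = 0.0381, 1.77e-14 and 1.41e-22). On this scale the Combo libraries lay above those of both single agents in these 3 genes. With total counts alone the log2 fold changes of Combo over GLP1R and antiIL17A were 0.35 and 0.33 for *Plk1*, -0.10 and -0.01 for *Mki67* and 0.28 and 0.02 for *Top2a*, so that the order held for *Plk1* and not for *Mki67*. *Cdc20* (0.42, 0.30 and 0.42, adjusted p = 5.34e-13, 3.33e-09 and 4.33e-13) and *Bub1* (0.16, 0.23 and 0.42, adjusted p = 0.0168, 0.000754 and 2.65e-07) rose in all treated groups. *Foxm1* gave 0.07, -0.02 and 0.16 (adjusted p = 0.0923, 0.579 and 9.04e-05) and passed in Combo alone.

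For some members the changes in GLP1R and antiIL17A differed in size or sign, and GLP1R was not tested against antiIL17A. *Cdk1* was at 7398, 7325 and 7397 in Vehicle, 9327, 8999 and 9018 in GLP1R, 6651, 6520.4 and 6629.9 in antiIL17A and 7188, 7142 and 7168 in Combo (0.31, -0.16 and -0.04, adjusted p = 1.65e-12, 5.01e-06 and 0.197). *Birc5* was at 6136, 6222 and 6227 in Vehicle, 7026, 7198 and 6939 in GLP1R, 5059, 5254 and 5371 in antiIL17A and 5329, 5393 and 5359 in Combo (0.19, -0.24 and -0.21, adjusted p = 2.98e-07, 1.15e-09 and 4.27e-08). Both were higher in GLP1R than in Vehicle and lower in antiIL17A than in Vehicle. *Aurkb* gave 0.23, -0.01 and 0.11 (adjusted p = 6.86e-06, 0.886 and 0.0122). With total counts alone the antiIL17A values were 0.01 for *Cdk1*, -0.07 for *Birc5* and 0.17 for *Aurkb*. *Melk* and *Ttk* passed the test in all 3 treated groups. *Melk* gave 0.17, 0.68 and 0.72 (adjusted p = 0.00688, 3.04e-14 and 7.70e-15) and *Ttk* 0.28, 0.52 and 0.62 (adjusted p = 0.000671, 7.78e-08 and 2.24e-09).

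The difference between Combo and each single agent was tested directly, and in BM its direction depends on the scaling. With TMM factors 22 members were higher and 14 lower in Combo than in GLP1R, against 36.1% and 35.3% of all genes. *Cep55* (0.73 ± 0.06), *Plk1* (0.61 ± 0.04), *Bub1b* (0.57 ± 0.03), *Top2a* (0.54 ± 0.02) and *Melk* (0.54 ± 0.05) were higher, and *Birc5* (-0.40 ± 0.03) was lower, each past the test. Against antiIL17A 36 members were higher and 0 lower, against 30.9% and 21.7% of all genes, and the 0 stood at an unadjusted p below 0.05 and by DESeq2 as well. With total counts alone, which moved all genes by a median of -0.26 and -0.19, 6 members were higher and 36 lower than in GLP1R (20.7% and 55.8% of all genes), and 6 higher and 18 lower than in antiIL17A (10.4% and 48.7%). On the TMM scale, *Plk1* led the rises of Combo over antiIL17A with 0.52 ± 0.04, adjusted p = 6.47e-14. It was followed by *Cep55*, *Ube2c*, *Kif20a*, *Aurka* and *Tpx2* at 0.33, 0.33, 0.32, 0.31 and 0.28. No member lay beyond a log2 fold change of 1 in either comparison on the TMM scale.

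Against WT, Combo BM was higher in 39 members and lower in 6, against 36.1% and 37.2% of all genes, with medians of 0.36 for the members and -0.03 for all genes. *Plk1* was the single member past the fold limit (1.11 ± 0.04, adjusted p = 3.18e-23), which 14.3% of all genes passed, and with total counts alone none was. *Mki67* (0.86 ± 0.02, adjusted p = 2.07e-29), *Cenpe* (0.72 ± 0.04), *Foxm1* (0.71 ± 0.04), *Espl1* (0.70 ± 0.04) and *Cdca8* (0.68 ± 0.04) followed, of which *Cdca8* encodes borealin of the passenger complex. The 6 lower members were *Mad2l1*, *Cenpa*, *Nuf2*, *Spc24*, *Spc25* and *Pttg1*, and the largest fall was that of *Mad2l1* (-0.47 ± 0.03, adjusted p = 2.31e-17). With total counts alone 32 members were higher and 12 lower.

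In BM, too, genes outside the set were read. Of 42 other mitotic genes 26 were higher and 6 lower in Combo than in Vehicle, and of 24 replication genes 18 were higher and 2 lower. Of 15 CDK inhibitors, pocket proteins and antiproliferative genes, 3 were higher and 11 lower in Vehicle than in WT, and of the 7 G1 genes 5 were higher and 1 lower. Of all genes 37.9% were higher and 35.8% lower in Combo than in Vehicle, and 37.8% higher and 38.8% lower in Vehicle than in WT. The inhibitor gene *Cdkn1a* was at 372, 361 and 378 in the WT libraries, 2889, 2777 and 2670.4 in Vehicle, 521, 476 and 479 in GLP1R, 462, 458 and 404 in antiIL17A and 438, 398 and 428 in Combo, and *Ccnd1*, encoding cyclin D1, at 613, 560.4 and 578 in the WT libraries, 1232, 1156 and 1229.6 in Vehicle, 328, 315 and 290.2 in GLP1R, 524, 513 and 498 in antiIL17A and 294, 308 and 251 in Combo. Like *Pttg1*, both were highest in Vehicle (2.91 ± 0.06, adjusted p = 3.70e-34 and 1.04 ± 0.07, adjusted p = 2.15e-17 against WT) and lower in Combo than in Vehicle (-2.72 ± 0.06, adjusted p = 2.82e-33 and -2.08 ± 0.07, adjusted p = 5.08e-26).

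Marker levels of BM moved with the groups, and their part in the results was not tested. The 8 measured erythroid precursor markers were at 1525 to 1621 CPM in WT, 1056 to 1078 in Vehicle, 3041 to 3082 in GLP1R, 2047 to 2119 in antiIL17A and 1398 to 1439 in Combo. All 7 immature granulocyte markers were measured and were at 5736 to 6310, 4833 to 4976, 5713 to 5803, 7577 to 7751 and 11290 to 11460 in the same order. GLP1R was thus highest in erythroid and Combo in granulocyte precursor markers. Those of B cell precursors, all 8 measured, were at 904 to 926 in WT, 246 to 262 in Vehicle and 97.7 to 103 in Combo, and those of stem and progenitor cells, all 6 measured, at 122 in each Vehicle library and 175 to 180.5 in Combo. Of the neutrophil list 6 markers were measured and stood at 79310 to 82210 in Vehicle and 82860 to 85280 in Combo, a sum made up mostly of *S100a8* and *S100a9*. Of these 6, 4 were higher and 1 lower in Combo than in Vehicle past the test, with log2 fold changes of 2.52 for *Retnlg* and 1.06 for *Mmp8*. The 10 macrophage markers summed to 13240 to 13520 in WT and 4113 to 4151 in Vehicle, mostly through *Lyz2* (-1.90), while 5 of the 10, *Cd14* (3.93) among them, were higher and 4 lower in Vehicle. The 5 measured T and NK cell markers were at 50.1 to 51.7 and 25 to 28.1 in Vehicle and Combo. Adipocyte, endothelial, fibroblast and pancreatic markers lay at or under 72.2 CPM in every BM library, and the epididymis and spermatid list had 0 genes in the BM table.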

How the data were processed

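Whole BM and sorted F4/80+ ATMs of 5 groups were profiled with 3 libraries per group and tissue, from poly(A) RNA in unstranded paired-end libraries. The values deposited are raw counts per gene, which the authors obtained with STAR 2.7.2a on GRCm38 (mm10, per the labels' processing notes) and featureCounts 2.0.1, counting reads over several genes for each of them and using no strand. Genes with few reads had been left out of the tables before deposition (smallest total over 15 libraries 55 in BM and 54 in ATMs), and an edgeR count filter removed 0 more. The tables were taken apart by tissue, 15 libraries in 1 fit each.

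Differences were tested, two-sided, with edgeR 4.0.16 (quasi-likelihood, robust, TMM factors; R 4.3.3) with Benjamini-Hochberg adjustment over all genes. Normalized counts are counts divided by TMM-scaled library size and multiplied by the mean library size. Counts at a log2 fold change limit of 1 follow the study's own limit. The comparisons of the treated groups share the Vehicle libraries. Alternatives were DESeq2 1.42.0 and its size factors, limma 3.58.1 (voom), other filters, a replicate block, only the groups compared, and leaving out each library, and after the data were seen scaling to total counts. The procedure was also tested on simulated data.

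All 51 members were described by role. A set of 10 (*Mki67*, *Top2a*, *Cdk1*, *Ccnb1*, *Plk1*, *Aurkb*, *Birc5*, *Bub1*, *Cdc20*, *Foxm1*) was followed throughout, with up to 6 further members per comparison that had the largest changes past the test and no overlap between replicates. *Smc4*, *Espl1* as a partner of securin, *Pttg1*, *Ube2c*, *Tpx2*, *Kif2c*, *Aurka*, *Incenp*, *Mad2l1*, *Ccnb2*, *Cenpa*, *Ndc80* and *Cdca8* were in places added after their values were seen. The members and lists were chosen with earlier results of these data known. Gene models came from GENCODE M21 and promoters from RefSeq (GRCm38.p6).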

Additional observations from a re-analysis of the deposited data

Results flagged for a closer look

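On the TMM scale, Vehicle differed from WT in opposite directions in BM and ATMs for the mean level of the members and for several genes of the set. All libraries of each tissue moved one way. The mean log2 level differed by 0.05 in BM and by -1.64 in ATMs, but in ATMs the summed CPM of Vehicle and WT overlapped. As a share of all counts, the members lay lower in Vehicle than in WT in BM too (0.619% to 0.623% against 0.654% to 0.662%). With total counts alone their median log2 fold change in BM was -0.11, so the opposite direction of the mean level depends on the scaling. The log2 fold changes in BM and ATMs were 0.50 and -1.18 for *Plk1*, 0.55 and -1.88 for *Foxm1*, 0.16 and -0.87 for *Birc5*, 0.66 and -3.56 for *Espl1*, and 0.22 and -3.17 for *Cep55*. In all, 12 members were higher in BM and lower in ATMs without overlap between replicates, and 0 the other way, against 6.98% and 7.25% of the 13076 genes tested in both tissues. A further 8 members were lower and 2 higher in both tissues, and 29 overlapped in at least 1 tissue.

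With treatment, opposite directions were rarer. GLP1R vs Vehicle gave -0.05 in BM and 1.77 in ATMs for *Top2a* and -0.77 and 4.18 for *Cep55*. In antiIL17A vs Vehicle the values were -0.16 and 1.48 for *Cdk1*, -0.24 and 3.02 for *Birc5*, and -0.36 and 5.13 for *Cep55*. Combo vs Vehicle gave -0.04 and 2.15 for *Cdk1* and -0.21 and 3.68 for *Birc5*, and Combo vs WT gave -0.05 and 2.82 for *Birc5* and -0.24 and 3.12 for *Spc24*. The difference between tissues was not tested in any of these, and BM changes this small can flip with the scaling.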

How the results depend on the processing

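Of 490 values recomputed under the alternatives, 418 kept their direction and size, 71 moved and 1 reversed, and the causes were not tested. Counts of members past the test, with higher and lower summed, stayed within 1.5 times the main count. Taken by direction they did not: with total counts alone the members higher in Vehicle than in WT in BM went from 22 to 13 (lower, 21 to 26), those lower in Combo than in WT from 6 to 12 and those lower in antiIL17A than in Vehicle from 7 to 3, and Combo against either single agent turned from mostly higher to mostly lower. With that scaling 2 members passed the fold limit in GLP1R vs Vehicle of BM (1 with TMM) and 0 in Combo vs WT (1 with TMM). The median log2 fold change of the members in BM, Vehicle vs WT, was 0.0156 and became -0.1092 with total counts, 0.0289 with DESeq2 size factors, 0.0288 with DESeq2 and 0.039 with voom. The medians of GLP1R, antiIL17A and Combo vs Vehicle in BM were 0.4667, 0.3404 and 0.3005 with total counts, 0.2229, 0.1613 and 0.3092 with DESeq2 or its size factors, and 0.3044 for Combo with only the groups compared, and that of Combo vs WT was 0.2108 with total counts. In ATMs the medians of Vehicle vs WT and of GLP1R, antiIL17A and Combo vs Vehicle were -1.478, 1.8997, 3.1313 and 3.8383 with total counts and -1.4326, 1.9417, 3.0134 and 3.7943 with voom.

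With the replicate number as a block the ATM medians were -1.1998 for Vehicle vs WT and 3.5675 for Combo vs Vehicle, and the other block values did not move beyond the spread. Deviations of same-numbered libraries had correlations of -0.068 to 0.145 in BM and -0.041 to 0.032 in ATMs over 30 pairs each. The means were 0.005 and -0.002. Of the libraries, 8 of 15 in BM and 2 of 15 in ATMs were closest to their own number. Deviations within groups of 3 libraries cannot decide whether the numbers mark a shared batch or mouse.

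As log2 ratios of summed CPM, the differences of Vehicle vs WT, GLP1R, antiIL17A and Combo vs Vehicle, and Combo vs WT were -0.051, 0.4417, 1.2808, 2.0173 and 1.9662 in ATMs, against -1.6405, 2.1589, 3.1005, 3.7999 and 2.1594 for the mean log2 level. In BM they were 0.2555, 0.1738, 0.3235 and 0.3654 for the last 4.

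Leaving out each library in turn gave medians of 0.0109 to 0.0414 for Vehicle vs WT in BM (0.0361 without WT 1), 0.211 to 0.2432, 0.1572 to 0.1896 and 0.2887 to 0.3443 for GLP1R, antiIL17A and Combo vs Vehicle and 0.3429 to 0.3762 for Combo vs WT. In ATMs the same medians were -1.2831 to -1.0998, 1.6148 to 1.9418, 2.5544 to 2.8011, 3.3568 to 3.596 and 2.0397 to 2.2595. Depth limits the ATM Vehicle values of genes with under 20 reads, whose fold sizes are loosely fixed.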
